A study of Mus musculus with 6 samples.

Results

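Molecular chaperones of the Hsp40, Hsp70, Hsp90 and chaperonin families were examined in mouse gastrocnemius (GA), a fast calf muscle, 14 days after its nerve supply was cut. Members were all genes of the array annotation whose symbols begin with Dnaja, Dnajb, Dnajc, Hspa, Hsp90, Hspd, Hspe or Hsph, or with Cct and a digit, except 1 gene that is not reported here. This gave 64 of 16593 annotated genes, covered by 89 probes: 38 Hsp40 genes, 13 Hsp70 and Hsp110 genes, 2 Hsp90 genes, 2 mitochondrial chaperonin genes and 9 TCP-1 ring genes. Of these, 46 genes gave a signal above background on at least 3 of 6 arrays, and 18 did not.

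The muscles came from adult male mice, 12 weeks old by the study's methods, with no genotype or strain given in the sources used here. In the denervated group (n = 3) the left sciatic nerve had been cut under isoflurane, with 2 mm of it taken out, and in the control group (n = 3) the GA of the uninjured right leg was taken at the same time. All control muscles were therefore right legs of animals with a nerve lesion, and side and lesion cannot be told apart. Nothing in the labels ties a left to a right muscle or says how many animals gave tissue, so the p-values speak only of the spread among 6 muscles.

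Hsp70 proteins bind stretches of unfolded protein and release them in a cycle driven by ATP. Hsp40 proteins carry a J domain, which brings clients to Hsp70 and starts ATP hydrolysis, and Hsp110 proteins are Hsp70 relatives that reload it with ATP. Hsp90 takes over clients at a later stage of folding, and the TCP-1 ring (CCT) encloses new actin, tubulin and other proteins in a cytosolic chamber. Skeletal muscle depends on this machinery for its myofibrils, and separate sets serve the cytosol, the endoplasmic reticulum (ER) and the mitochondria.

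Chaperone genes changed in both directions after denervation. Hsp40 genes Dnajb6 and Dnajc2, both measured Hsp110 members (Hspa4 and Hsph1) and the TCP-1 subunit Cct3 were 2.02- to 2.30-fold higher in denervated muscle. Dnajb5, another Hsp40 gene, was 2.47-fold lower. In all, 13 of 46 measured members were higher, 8 were lower and 25 did not pass the test (limma, Benjamini-Hochberg adjusted p under 0.05 over all measured probes). Among all 8740 measured genes 22.2% were higher and 21.6% lower, against 28.3% and 17.4% of the members, so neither share stood far from that of all genes. The median log2 difference was 0.16 over the members and -0.00325 over all genes.

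In 26 of 46 members (56.5%) the 3 denervated values lay entirely above or below the 3 control values, next to 55% of all genes, so separation of the groups was about as frequent among chaperones as among all genes. All 21 called members were among these. Values are normalized log2 signals of each gene's brightest probe, and a difference is denervated minus control. Since the tissue is bulk RNA, fewer cells of a type and less RNA per cell cannot be told apart.

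The arrays themselves were alike within groups, with correlations of 0.988 to 0.994, and between groups these were 0.937 to 0.941. Between 11551 and 12785 of 25697 probes were above background on an array. Before normalization the denervated arrays were brighter, with a 95th percentile of signal of 4000 to 4048 against 2896 to 3022 on control arrays. All arrays lay on 1 chip, the controls in sections A to C and the denervated samples in D to F. Section and group therefore cannot be told apart. All 8 muscle fiber markers were bright in both groups, with summed normalized signals of 460500 to 469600 in denervated and 457400 to 481000 in control muscle. Acta1, Ckm and Mylpf were near the ceiling on all 6 arrays, so these sums could hardly move, while Des (desmin) differed by 0.57 (adjusted p = 0.00283, limma). All 11 measured macrophage markers were higher in denervated muscle (summed signal 10060 to 12930 against 4263 to 4838), and 6 of 7 measured endothelial markers were lower (8454 to 9169 against 10780 to 14180). Of 3 measured Schwann cell markers, Mbp and Pmp22, genes of myelin, differed by -2.62 and -2.10 and Ngfr, a receptor of injured nerve, by 3.62, all called (summed signal 2602 to 3200 against 5320 to 12790). These are the brightest probes. Dimmer Mbp probes were called in opposite directions, at -1.49 (adjusted p = 0.00330, limma) and 0.66 (adjusted p = 0.00894). The part of these cells in the chaperone results was not tested.

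Sequence upstream of the members was searched first for sites known from the stress responses that control many chaperones. The heat shock element is bound by heat shock factors, and was searched as GAANNTTCNNGAA and, for the other strand, TTCNNGAANNTTC. The ER stress element is bound in the unfolded protein response, and was searched as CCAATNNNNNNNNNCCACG and its other strand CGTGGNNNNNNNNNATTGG. The 2 motifs share no fixed core. RefSeq promoters (build GRCm38.p6, 250 bases before to 50 after each start) were matched for 52 of 64 members. The heat shock element was found in 4 of them (Dnajb6, Hsph1, Hspd1 and Hspe1). It was in 198 of 32851 promoters overall (0.603%), and in 39 of 7102 measured genes with a promoter (0.549%). Promoters of the stress-inducible genes Hspa1a and Dnajb1 held no match, and none were matched for Hspa8 and Hsp90aa1. Only this exact form was searched, so members without a match may still hold looser forms of the element. The ER stress element was found in 3 of the 52 members (Hsp90b1, Dnajc3 and Hspa5). It was in 39 promoters overall (0.119%), and in 10 of 7102 measured genes with a promoter (0.141%).

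The stretches below are shown because they hold these matches, in capitals, in genes whose differences are given next. Each runs 5′ to 3′ on the gene's own strand and ends at the base before the annotated start, except that of Hsph1, which lies just after it. They are Dnajb6 at chr5:29735778-29735897 (plus strand), Hspe1 at chr1:55088028-55088147 (plus strand), Hsph1 at chr5:149636287-149636308 (minus strand), Hsp90b1 at chr10:86705445-86705664 (minus strand), Dnajc3 at chr14:118937812-118937931 (plus strand) and Hspa5 at chr2:34771970-34772089 (plus strand).
Dnajb6: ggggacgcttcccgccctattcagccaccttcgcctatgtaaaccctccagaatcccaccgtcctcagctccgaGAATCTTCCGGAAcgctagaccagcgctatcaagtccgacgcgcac
Hspe1: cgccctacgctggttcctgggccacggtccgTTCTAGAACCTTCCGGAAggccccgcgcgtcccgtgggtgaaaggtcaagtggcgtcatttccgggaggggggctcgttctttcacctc
Hsph1: gctgcagaTTCTGGAAAGTTCt
Hsp90b1: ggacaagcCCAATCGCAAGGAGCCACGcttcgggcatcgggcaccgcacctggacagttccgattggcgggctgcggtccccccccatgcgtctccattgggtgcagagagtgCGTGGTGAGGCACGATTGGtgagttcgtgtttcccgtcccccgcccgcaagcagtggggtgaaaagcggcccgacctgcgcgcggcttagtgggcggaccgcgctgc
Dnajc3: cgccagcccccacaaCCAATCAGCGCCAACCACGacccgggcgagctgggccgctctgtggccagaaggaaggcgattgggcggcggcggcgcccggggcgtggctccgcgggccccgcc
Hspa5: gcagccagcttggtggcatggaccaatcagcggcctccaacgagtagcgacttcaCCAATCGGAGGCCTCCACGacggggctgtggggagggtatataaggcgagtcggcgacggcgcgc

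In Hspe1 the capitals are 2 overlapping matches on opposite strands. Hspd1 runs the other way and has 2 annotated starts, 95 and 216 bases from that of Hspe1. The same letters lie upstream of the start 216 bases away and downstream of the other. In Hsp90b1 there are 2 separate matches. Of the genes with a matched promoter, the heat shock element was in 2 of 10 higher members, 0 of 7 lower members, 2 of 21 members not called and 0 of 14 not measured, and the ER stress element in 2, 0, 1 and 0. A match describes the letters only.

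**Figure D1:**
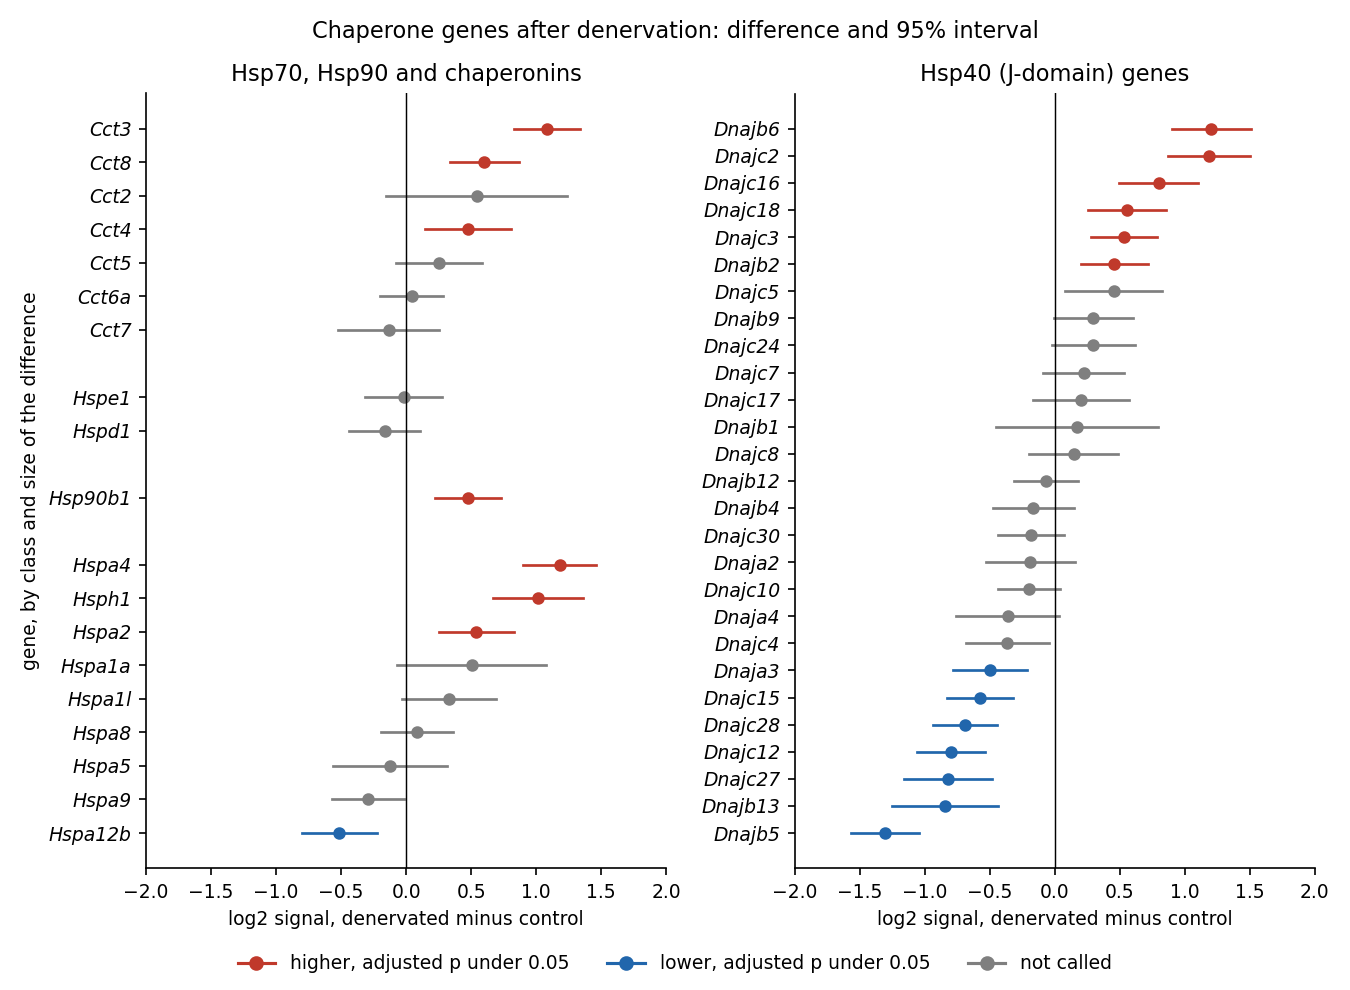
Difference in log2 signal, denervated minus control, for the 46 measured chaperone genes, grouped by class (points, estimates; lines, 95% intervals from limma, n = 3 per group). The 13 higher genes (red) reach 1.20 in Dnajb6 and the 8 lower genes (blue) reach -1.31 in Dnajb5; with median scaling in place of quantile normalization, 8 gray genes change sign and Dnaja3 and Hspa12b are no longer called.

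Among the Hsp70 genes, the Hsp110 branch held the 2 largest differences. Hspa4 (Apg-2), an exchange factor for Hsp70, gave log2 signals of 8.999, 8.69 and 8.94 in denervated and 7.75, 7.66 and 7.67 in control muscle. Each denervated value was well above each control value. The difference was 1.18 (SE 0.12, adjusted p = 0.000117, limma). Hsph1 (Hsp105), the second exchange factor of this branch and the gene with a heat shock element after its start, gave 12.13, 12.10 and 11.92 in denervated against 11.02, 11.30 and 10.78 in control muscle. Every denervated value was again above every control value, with a difference of 1.02 (SE 0.15, adjusted p = 0.000851, limma). The third Hsp110 gene, Hspa4l, was not above background on any array.

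Of the 7 other Hsp70 genes measured, 1 was higher and 1 was lower (14.3% each, next to 22.2% and 21.6% of all genes). Hspa8 (Hsc70), the constitutive cytosolic Hsp70, gave 15.91, 15.89 and 15.80 in denervated and 15.81, 15.92 and 15.61 in control muscle. The ranges overlapped, and the difference was 0.08 (95% interval -0.19 to 0.36, adjusted p = 0.613, limma). Its signal, 49360 to 64718 on the linear scale, was close to the highest on these arrays, 71358, so a change there could be compressed. Its second, less bright probe gave -0.06 (SE 0.12, adjusted p = 0.691, limma).

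Hspa1a encodes the stress-inducible Hsp70, and nearly the same transcript is made by Hspa1b, which a probe may not tell apart. Its values were 8.91, 8.89 and 8.06 in denervated and 7.99, 8.48 and 7.86 in control muscle. Denervated replicates 1 and 2 were above all controls, and replicate 3 lay among them. The difference of 0.51 was not called (95% interval -0.07 to 1.08, adjusted p = 0.138, limma). Without denervated replicate 3 it was 0.79 (adjusted p = 0.0154, limma), but replicate 3 was also the lowest of the controls. Over 18 alternatives the difference of Hspa1a ranged from 0.36 to 0.79, and it was called in 3 of them. The within-group SD of Hspa1a, 0.42, was among the 3 widest of the members, whose median was 0.15.

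Hspa2, a relative best known from male germ cells, was higher in denervated muscle, at 11.06, 10.94 and 11.10 against 10.68, 10.45 and 10.34. The groups did not overlap, and the difference was 0.54 (SE 0.13, adjusted p = 0.00895, limma). A second probe gave 0.69 (SE 0.16, adjusted p = 0.00700). Hspa1l, also best known from testis, had overlapping ranges and a difference of 0.33 (95% interval -0.03 to 0.69, adjusted p = 0.128). Its log2 signals of 10.21 to 10.96 were above every value of Hspa1a. Whether this probe reads other transcripts was not tested.

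Hspa12b, a distant Hsp70 relative known from endothelial cells, was the 1 member of the class that was lower. It gave 8.50, 8.50 and 8.81 in denervated and 9.10, 9.08 and 9.17 in control muscle. The difference was -0.51 (SE 0.13, adjusted p = 0.0106, limma). With median scaling it was -0.26 (adjusted p = 0.137). The endothelial genes Cdh5, Pecam1 and Tie1 differed by -0.67, -0.58 and -0.51 in the same direction, and their part in the Hspa12b result was not tested. Hspa12a, Hspa13 and Hspa14 were not above background on any array.

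Of 7 measured subunit genes of the TCP-1 ring in the Cct series, 3 were higher, none lower and 4 not called, where 22.2% of all genes were higher, and the median difference was 0.48. The ring was not tested against other genes. With median scaling Cct2 and Cct5 were called higher as well, and the median was 0.68. It was 0.24 without background correction and with the authors' quantile-normalized values. Without denervated replicate 3 it was 0.29, and without control replicate 3 it was 0.27. Cct3 (gamma subunit) gave 11.88, 12.04 and 11.97 in denervated and 10.95, 10.82 and 10.85 in control muscle. The groups were narrow and far apart, with a difference of 1.08 (SE 0.11, adjusted p = 0.000105, limma) and of 0.93 by a second probe (SE 0.11, adjusted p = 0.000229).

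Cct8 (theta) gave 12.32, 12.12 and 12.06 against 11.57, 11.54 and 11.59, a difference of 0.60 (SE 0.12, adjusted p = 0.00342, limma). Cct4 (delta) gave 12.79, 12.94 and 13.26 against 12.53, 12.41 and 12.62, a difference of 0.48 (SE 0.14, adjusted p = 0.0267). The Cct4 call had the highest adjusted p of the 21 and was lost without denervated replicate 2 (adjusted p = 0.0613) or 3 (0.0767), or control replicate 1 (0.0516) or 2 (0.0818).

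The remaining subunits were not called. Cct6a (zeta) was among the most precisely measured members, at 12.84, 12.95 and 12.90 against 12.83, 12.83 and 12.90. Its difference of 0.04 had a 95% interval of -0.20 to 0.28. Cct5 (epsilon) differed by 0.25 (-0.07 to 0.58), and Cct7 (eta), close to background, by -0.13 (-0.52 to 0.25). Cct2 (beta) was dim and scattered, at 6.66, 6.21 and 7.20 against 6.70, 6.14 and 5.61, with a difference of 0.54 (-0.16 to 1.24, adjusted p = 0.188, limma). The subunits share 1 ring, but their probes did not give 1 common difference. Cct6b and Cct8l1, the testis-type relatives, were not measured.

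Genes that work with the ring, none of them members by symbol, gave 3 higher (42.9%) and 1 lower (14.3%) of 7 measured. Among all genes 22.2% were higher and 21.6% lower. Pfdn2, a subunit of prefoldin, which hands actin and tubulin to the ring, gave 13.47, 13.53 and 13.49 in denervated and 12.56, 12.84 and 12.54 in control muscle. Its difference was 0.85 (SE 0.12, adjusted p = 0.000716, limma). Tcp1, the alpha subunit of the ring itself, differed by 0.32 (SE 0.11, adjusted p = 0.0450) by its brightest probe and by 0.14 (SE 0.16, adjusted p = 0.520) by a second, which was not called. The phosducin-like genes, whose products bind the ring, went opposite ways, Pdcl3 at 0.42 (adjusted p = 0.0300) and Pdcl at -0.35 (adjusted p = 0.0274).

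**Figure D2:**
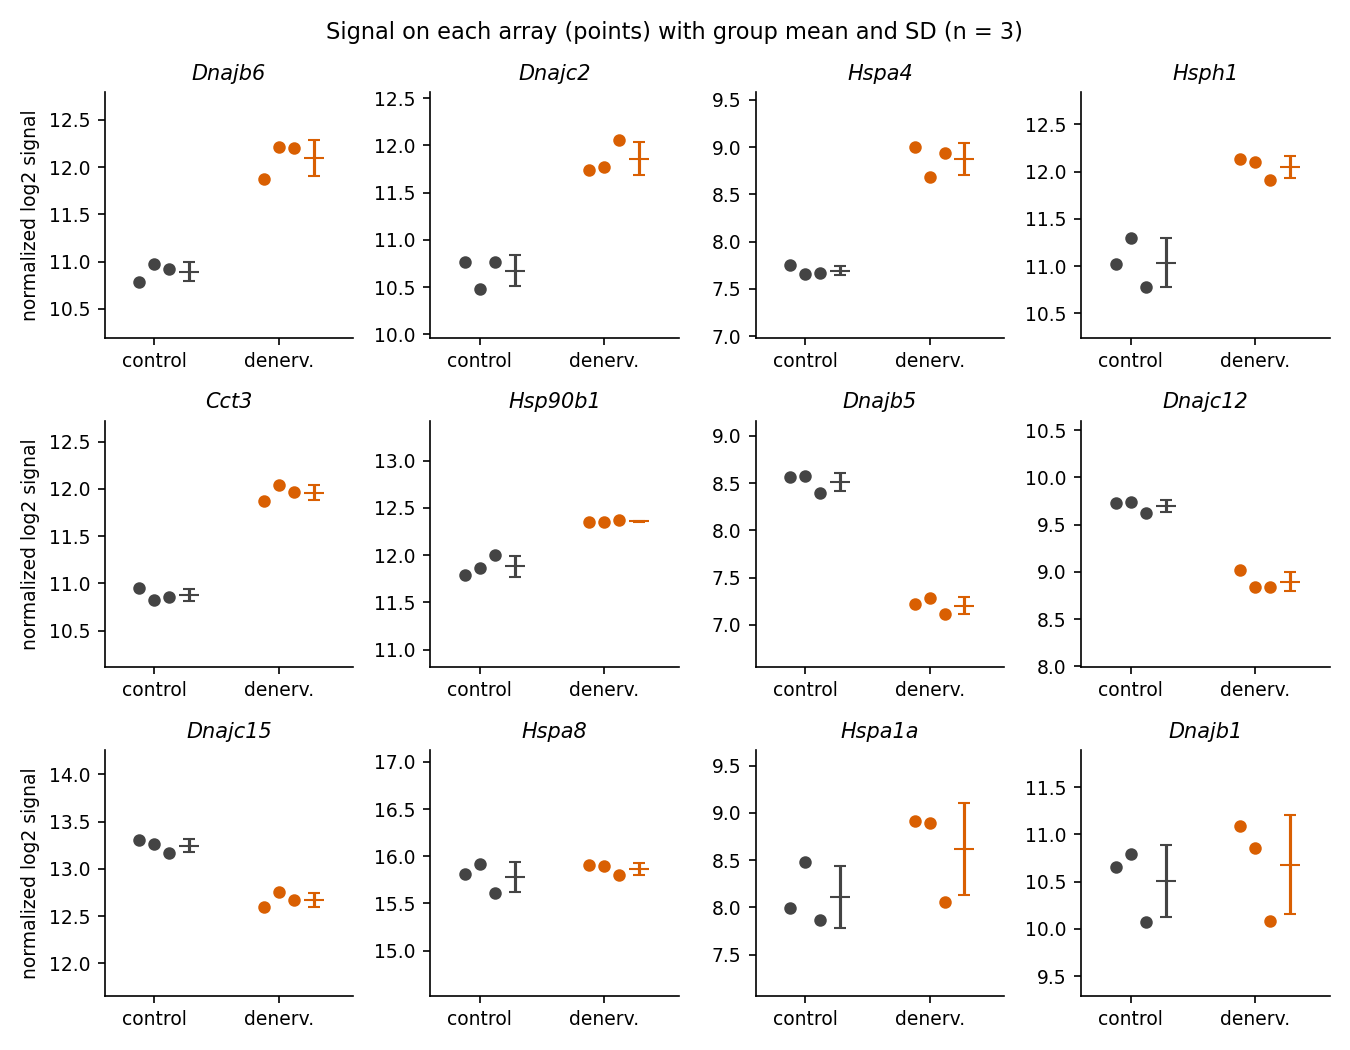
Normalized log2 signal of 12 chaperone genes on each array (points), with group mean and SD beside them (n = 3). Every panel spans the same range on its vertical axis; the groups are apart in the first 9 genes, as in Dnajb6 at 11.88 to 12.22 against 10.78 to 10.97, and overlap in Hspa8, Hspa1a and Dnajb1.

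Of 27 measured Hsp40 genes, the largest class, 6 were higher (22.2%) and 7 lower (25.9%), close to the 22.2% and 21.6% of all genes. Their median was -0.07 and became 0.20 with median scaling, where the median of all genes was itself 0.20. Dnajb6, whose product holds aggregation-prone clients and is mutated in a limb-girdle muscular dystrophy, had the largest rise of all members. It gave 11.88, 12.22 and 12.20 in denervated and 10.78, 10.97 and 10.92 in control muscle. The difference was 1.20 (SE 0.13, adjusted p = 0.000162, limma), a 2.30-fold change, and its second probe gave 1.13 (SE 0.14, adjusted p = 0.000320).

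Dnajc2 (MPP11), a J protein that sits on the ribosome where new chains emerge, gave 11.74, 11.78 and 12.06 against 10.76, 10.48 and 10.77. The difference was 1.18 (SE 0.14, adjusted p = 0.000229, limma) and was 1.14 by a second probe (SE 0.11, adjusted p = 9.1e-05). Dnajb2 (HSJ1), which carries ubiquitin-binding motifs and is best known from neurons, gave 11.07, 11.08 and 11.11 against 10.68, 10.71 and 10.50. Its denervated values were nearly identical, and the difference was 0.46 (SE 0.11, adjusted p = 0.0103).

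The largest fall was in the same subfamily as the largest rise. Dnajb5, a cytosolic J protein known in heart as a partner of the histone deacetylase HDAC4, gave 7.22, 7.29 and 7.11 in denervated and 8.56, 8.57 and 8.40 in control muscle. The groups were far apart, and the difference was -1.31 (SE 0.11, adjusted p = 4.46e-05, limma), a 2.47-fold decrease. Dnajc12, which binds aromatic amino acid hydroxylases, gave 9.02, 8.84 and 8.84 against 9.73, 9.74 and 9.62, a difference of -0.80 (SE 0.11, adjusted p = 0.000664).

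Dnajb1, the main stress-inducible Hsp40 and usual partner of Hspa1a, was not called. It gave 11.09, 10.86 and 10.09 in denervated and 10.65, 10.79 and 10.07 in control muscle, so replicate 3 was the lowest of both groups. The difference was 0.17 (95% interval -0.45 to 0.79, adjusted p = 0.647, limma) and turned to -0.03 without denervated replicate 1 and to -0.05 without control replicate 3. The other cytosolic J genes Dnaja2, Dnaja4, Dnajc7, Dnajc8, Dnajc17 and Dnajc24 differed by -0.36 to 0.30, none called. With median scaling Dnaja2 changed sign, and Dnajc7 and Dnajc24 were called higher.

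Dnajb4, a close relative of Dnajb1 and Dnajb5, depended on the probe. Its brightest probe gave 8.15, 8.21 and 8.22 against 8.62, 8.23 and 8.23, a difference of -0.17 (SE 0.14, adjusted p = 0.360, limma). Its other probe gave 6.27, 6.58 and 7.06 against 7.91, 7.97 and 8.05, a difference of -1.34 (SE 0.19, adjusted p = 0.000650). It was the 1 gene of 11 with 2 measured probes where only one of them was called, and none of the 11 was called in opposite directions.

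**Figure D3:**
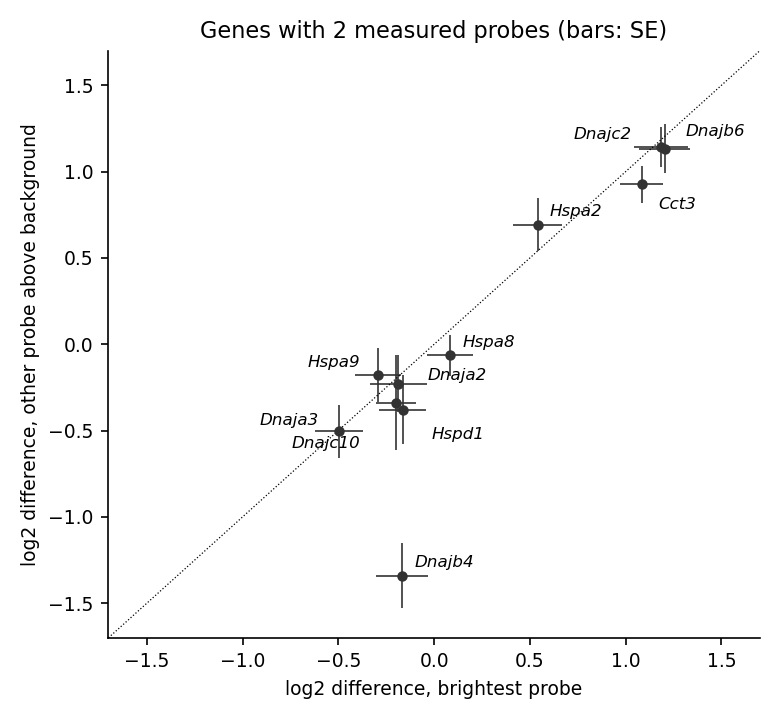
Log2 difference (denervated minus control) of the brightest probe of each gene against that of its other measured probe, for the 11 chaperone genes with 2 such probes (bars, SE). The points lie near the dotted line of equal values except Dnajb4, at -0.17 by one probe and -1.34 by the other; with median scaling the brightest-probe values of Dnaja2, Dnajb4, Dnajc10, Hspa8 and Hspd1 change sign.

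Among ER chaperones, 4 of 8 measured genes were higher and none lower, next to 22.2% and 21.6% of all genes, and the median was 0.39. The compartments were not tested against each other or against other genes. Hsp90b1 (GRP94), the Hsp90 of the ER lumen and a gene with ER stress elements upstream, gave 12.35, 12.35 and 12.37 in denervated and 11.79, 11.86 and 12.002 in control muscle. The denervated values hardly differed from each other, and the difference was 0.47 (SE 0.11, adjusted p = 0.00882, limma). Dnajc3 (p58IPK), a lumenal partner of BiP that also carries an ER stress element, gave 8.81, 8.73 and 8.76 against 8.21, 8.34 and 8.15, a difference of 0.53 (SE 0.11, adjusted p = 0.00481).

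Dnajc16, an ER J protein, was the ER gene that changed most, at 8.97, 9.23 and 9.19 against 8.14, 8.42 and 8.44. The difference was 0.80 (SE 0.13, adjusted p = 0.00158, limma). Dnajc18, an ER membrane J protein, gave 7.97, 8.08 and 7.81 against 7.53, 7.23 and 7.43, a difference of 0.56 (SE 0.13, adjusted p = 0.00868).

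Hspa5 (BiP), the Hsp70 of the ER lumen and the usual marker of ER stress, gave no readable change. Its probe was near background, at 6.40, 5.88 and 5.58 against 6.09, 6.04 and 6.09, with a difference of -0.12 (95% interval -0.56 to 0.32, adjusted p = 0.642, limma). Without denervated replicate 3 it was 0.07. Dnajb9 (ERdj4), another stress-inducible ER gene, differed by 0.30 (-0.01 to 0.60), Dnajb12, of the ER membrane, by -0.07 (-0.32 to 0.18), and Dnajc10 (ERdj5), a reductase, by -0.20 (-0.44 to 0.04). With median scaling Dnajb12 and Dnajc10 changed sign, and Dnajb9 was called (0.52, adjusted p = 0.0116).

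Of 6 measured mitochondrial chaperone genes, 0 were higher and 2 lower (33.3%, next to 21.6% of all genes), with a median of -0.24 that was -0.07 under median scaling. Dnajc15 (MCJ), a J protein of the inner membrane, gave 12.59, 12.75 and 12.67 in denervated and 13.30, 13.26 and 13.17 in control muscle. The groups were separate, and the difference was -0.57 (SE 0.11, adjusted p = 0.00332, limma). Dnaja3 (Tid1), the matrix partner of mitochondrial Hsp70, gave 12.40, 12.17 and 12.20 against 12.64, 12.90 and 12.71, a difference of -0.50 (SE 0.13, adjusted p = 0.0124). By median scaling it was -0.28 (adjusted p = 0.133), and without denervated replicate 2 it was -0.45 (adjusted p = 0.0523).

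Hspa9 (mortalin), the mitochondrial Hsp70, gave 14.09, 14.27 and 13.96 against 14.40, 14.39 and 14.40. The denervated values were all below the controls, but the difference of -0.29 was not called (95% interval -0.57 to -0.02, adjusted p = 0.0797, limma). It was called in 4 alternatives, the authors' quantile-normalized values among them (adjusted p = 0.0271). The 4 include a setting whose p-values were not adjusted. With median scaling the difference was -0.18 and was not called (adjusted p = 0.346, limma). A second, less bright Hspa9 probe gave -0.18 with overlapping ranges (SE 0.16, adjusted p = 0.393, limma). The chaperonin pair did not separate. Hspd1 (Hsp60) gave 12.37, 12.33 and 12.31 against 12.58, 12.32 and 12.60, a difference of -0.16 (-0.44 to 0.11). Hspe1 (Hsp10), its lid, gave 10.72, 11.13 and 10.92 against 10.91, 10.96 and 10.95, a difference of -0.02 (-0.32 to 0.28). Dnajc30, a J protein of mitochondria, differed by -0.18 (-0.43 to 0.07), and like Hspd1 and Hspe1 it changed sign with median scaling.

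**Figure D4:**
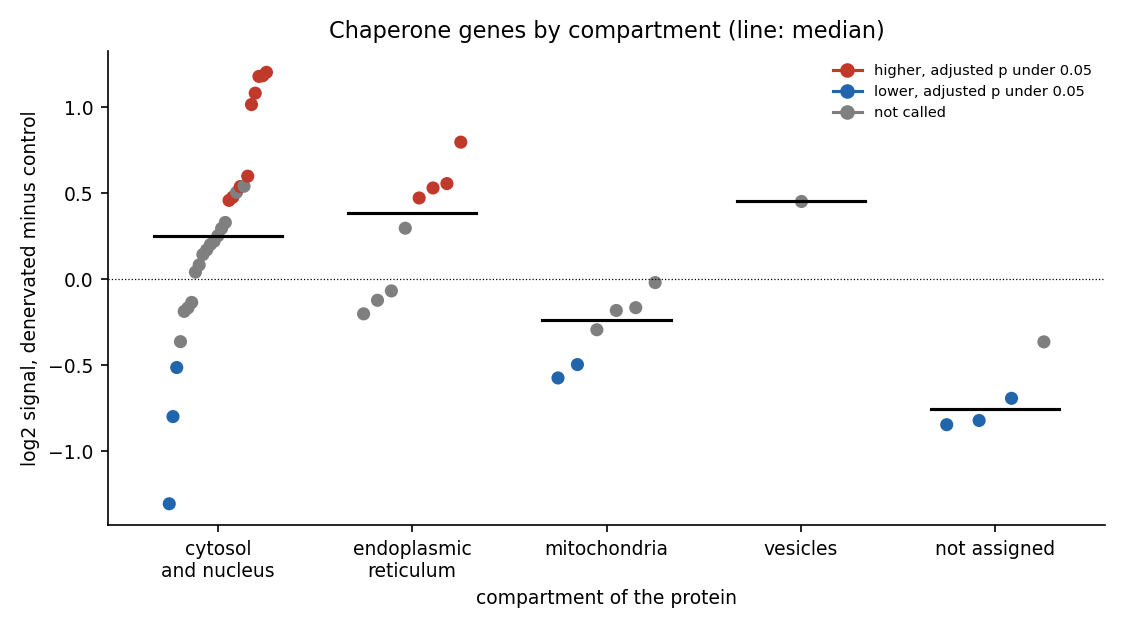
Log2 difference (denervated minus control) of the 46 measured chaperone genes by the compartment of their protein (points, genes; horizontal lines, medians). Medians were 0.25 in cytosol and nucleus, 0.39 in the ER and -0.24 in mitochondria, and kept their sign with median scaling, which changed the sign of 8 uncalled genes; the differences between compartments were not tested.

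Of 4 measured J proteins of other or unclear location, 3 were lower (75%, next to 21.6% of all genes) and 0 higher. This small group was not tested against other genes. Its share, like those of the other compartments, rests on locations assigned from general knowledge. Dnajc27, a Rab-like GTPase with a J domain, gave 9.73, 9.87 and 9.84 against 10.91, 10.39 and 10.61, a difference of -0.82 (SE 0.15, adjusted p = 0.00235, limma). Dnajc28, a little-studied J protein, gave 7.15, 7.05 and 7.22 against 7.84, 7.81 and 7.85, a difference of -0.69 (SE 0.11, adjusted p = 0.00111). Dnajb13, known from sperm tails and cilia, was near background, at 5.84, 5.71 and 5.75 against 6.97, 6.64 and 6.23, and differed by -0.85 (SE 0.18, adjusted p = 0.00532).

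Dnajc4 differed by -0.36 (95% interval -0.68 to -0.04, adjusted p = 0.0659, limma) and was called lower in 5 alternatives. With median scaling it was -0.10 (adjusted p = 0.613, limma). Dnajc5 (cysteine string protein), a chaperone of synaptic and secretory vesicles, lay just beyond the threshold. It gave 10.53, 10.48 and 10.67 in denervated and 9.78, 10.39 and 10.15 in control muscle. The groups did not overlap, and the difference was 0.45 (0.08 to 0.82, adjusted p = 0.0513). It was called higher in 8 alternatives.

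All differences are relative to the other genes of an array, since the denervated arrays were brighter as a whole. In Dnaja3, for example, which was called lower, the signals before normalization were 6417.5, 5425.5 and 5531.6 in denervated and 5441.8, 6410.4 and 5867.2 in control muscle, and overlapped. In Dnajb12, which was not called, they were 1616.8, 1472.3 and 1422.2 against 1105.6, 1100.0 and 1163.6.

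Some of the best-known chaperone genes could not be read. The probes of Hsp90aa1, the inducible cytosolic Hsp90, and of Dnaja1, a main partner of Hspa8, had log2 signals of 4.70 to 5.65, where the limit of background was 5.60 to 5.92. Of the 18 genes not measured, 15 were above background on no array. Of 9 members whose transcripts are expected mainly in testis, 2 were measured (Hspa1l and Dnajb13). Of the 25 members measured and not called, 9 had 95% intervals within 0.5 of 0 on the log2 scale, and in the others the interval did not exclude a larger change. The 9 include Dnajb4, whose other probe was called lower at -1.34, and Hspa8, where signal near the ceiling could compress a change. For these genes the interval of the brightest probe alone does not bound the change.

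Partners of Hsp70 and Hsp90 that are not members by symbol moved in both directions. Of 13 measured Hsp70 partners 2 were higher (15.4%) and 0 lower, next to 22.2% and 21.6% of all genes. The partner lists were not tested against other genes. Sec63, a J protein of the ER translocation channel, was higher by 0.79 (SE 0.14, adjusted p = 0.00196, limma). St13 (Hip), which stabilises the ADP-bound Hsp70, was also higher by 0.79 (SE 0.18, adjusted p = 0.00719, limma). Of 14 Hsp90 partners 2 were higher (14.3%) and 4 lower (28.6%). Fkbp5, a steroid receptor co-chaperone, gave 8.24, 7.85 and 7.47 in denervated against 10.003, 9.39 and 9.06 in control muscle.

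Its difference of -1.63 (SE 0.26, adjusted p = 0.00127, limma) was larger in size than that of any member. Fkbp4, the related immunophilin, differed by -0.98 (SE 0.18, adjusted p = 0.00253), and Smyd1, a muscle methyltransferase that works with Hsp90 on myosin, by -0.90 (SE 0.23, adjusted p = 0.0121). Ppid, a cyclophilin of Hsp90 complexes, differed by 0.46 (SE 0.13, adjusted p = 0.0177). Of the heat shock factor genes, Hsf2 and Hsf4 were measured and not called, at 0.04 (95% interval -0.25 to 0.32) and 0.32 (0.02 to 0.62, adjusted p = 0.0787). Hsbp1, a small inhibitor of heat shock factor 1, was lower, at -0.47 (SE 0.12, adjusted p = 0.0147).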

How the data were processed

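Total RNA of 6 GA muscles was depleted of ribosomal RNA, labelled and hybridised by the authors to Illumina MouseRef-8 bead arrays, which were read in GenomeStudio. The deposited intensity values are linear mean bead signals, not normalized, with a bead standard error and a detection p-value from the authors' software for each probe. A member probe was read on a median of 41 beads (lowest 22), with a median bead error of 5.81% of signal, and array number limits the precision. The authors' quantile-normalized intensities of the same arrays served as an alternative. Groups came from the sample labels.

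Signals were background-corrected (normexp from detection p-values, offset 16), quantile-normalized and put on the log2 scale with neqc in limma 3.58.1 (R 4.3.3). Of 25697 probes, 12546 with detection p under 0.05 on at least 3 arrays were kept. A gene was represented by its brightest kept probe. lmFit and eBayes were run over all 12546 kept probes, p-values were adjusted by Benjamini-Hochberg, and calls were made under 0.05. The code was tested on simulated data. The study's methods name no test for these arrays. Gene names came from the platform annotation, and all 64 member symbols matched RefSeq.

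Named were all measured members of the Hsp70, Hsp110, Hsp90, chaperonin and TCP-1 classes. Of each Hsp40 subfamily, up to 4 rises and 4 falls past the threshold were named, with precise uncalled Hsp40 genes of each compartment. From each partner list up to 4 changed genes were named. Other uncalled Hsp40 genes and Hyou1 were named after their values were seen. Compartments were assigned from general knowledge. The members and lists were chosen with earlier results of these data known.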

Additional observations from a re-analysis of the deposited data

How the results depend on the processing

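Over the alternatives in background correction, normalization, filter, probe choice, test and left-out arrays, 12 to 21 members were higher and 6 to 11 lower, and of 824 values of single genes 768 kept their direction and side of the threshold. Median scaling made 21 members higher and 6 lower and raised the median of all genes to 0.203, with 73.2% of all calls higher against 50.6%. The additions were Cct2, Cct5, Dnajb9, Dnajc5, Dnajc7, Dnajc24, Hspa1a and Hspa1l, and Dnaja3 and Hspa12b were lost. Leaving out 1 array at a time gave 12 to 14 higher and 7 to 9 lower. All 13 values that changed sign belonged to genes not called. With median scaling these were Dnaja2 0.0721, Dnajb12 0.204, Dnajb4 0.0834, Dnajc10 0.069, Dnajc30 0.0479, Hspa8 -0.0401, Hspd1 0.0486 and Hspe1 0.217. Over the left-out arrays Dnajb1 ranged from -0.0461 to 0.465, Hspa5 from -0.345 to 0.0664, Hspa8 from -0.000547 to 0.153 and Hspe1 from -0.123 to 0.0827, and Dnajb1 was also below 0 (-0.0338) without denervated replicate 1. The causes were not tested. Labels give both groups the same replicate numbers, but deviations of same-numbered samples correlated at -0.0167, 0.161 and 0.164, with 2 of 3 denervated samples closest to their own number. This does not establish pairs, and whether the numbers mark animals is undecided. With a replicate block 14 members were higher and 8 lower, the addition being Hspa1a (0.506, adjusted p = 0.0433). By the methods' t-test, which the study names for its work in general, 13 members were higher and 11 lower without adjustment, and 12 and 8 after it, where Cct4 (adjusted p = 0.0816) and Dnajb13 (0.052) were lost and Dnajc10 (0.0153) was added. Weak signal limits Hspa5, Cct2, Cct7, Dnajb13 and Dnajc17, and signal near the ceiling limits Hspa8.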

Other observations

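Hspa1a and Dnajb1, the stress-inducible pair, varied between arrays of 1 group more than most genes, with pooled within-group SDs of 0.415 and 0.458 against a median of 0.165 over all measured genes. The member with a wider spread, Cct2 (0.522), was dim. In both groups replicate 3 was the lowest for Hspa1a and for Dnajb1. Over the 6 arrays the deviations of Dnajb1 from its group means correlated with those of Hspa1a at r = 0.916, where 270 of 8739 other genes (3.09%) reached 0.9 or more, and 1 of 45 other members did. Dnajb1 ranked 215 among these genes. In the other direction Dnaja2, Dnajc2, Cct4 and Hspa12b reached -0.985, -0.979, -0.944 and -0.914. The share of all genes this far below 0 was not counted. The 6 points are arrays of 2 groups, and no test was made.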
